A study of Mus musculus with 32 samples.

Results

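The genes described here are 36 genes of the cell cycle and of DNA replication, taken by name from the 47643 gene IDs with a count in the table. They cover the G1 cyclins and their kinase, the inhibitors of cyclin-dependent kinases, the licensing and fork proteins of replication, the enzymes that supply deoxynucleotides, the cyclins and kinase of S, G2 and M phase, the kinases and checkpoint proteins of mitosis, and chromatin, kinetochore and tubulin proteins of dividing cells. All 36 symbols matched a single gene ID.

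RNA came from epididymal white adipose tissue (eWAT) and liver of male C57BL/6 mice (C57BL/6J in the study's methods) that were 10 weeks old. Mice drank corticosterone (Cort) or vehicle (Veh) for 7 days while on a normal protein diet (NPD, 20% of calories) or a high protein diet (HPD, 60% of calories), which made 4 groups in each tissue and 4 libraries in each group. The HPD held less carbohydrate than the NPD at equal calories, so protein and carbohydrate cannot be told apart. The mice carried no transgene or deletion according to the labels, and the labels number the libraries of a group without tying them to animals or tying liver to eWAT, so the p-values measure the spread between these libraries.

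Cells that enter division make D cyclins, which act with Cdk4, and then E cyclins, and the release of E2F factors switches on the genes for replication. The genes of G2 and mitosis follow later and are held off in resting cells by a repressor complex that works through promoter elements called CHR, often near CCAAT boxes. In adult fat and liver few cells divide: in fat these are mostly precursor, immune and endothelial cells, and in liver hepatocytes rest in G1 or G0 and divide after loss of tissue. Corticosterone acts through the glucocorticoid receptor, which is known to slow division in many cell types. Bulk RNA cannot tell fewer dividing cells from less of a transcript in each cell.

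The promoters are shown for the genes that fell or rose with cort, because the elements of cell cycle control lie within them. Each line is the 250 bases before the RefSeq start of the gene, read 5′ to 3′ on the strand of the gene in the RefSeq table for GRCm38.p6. Capitals mark CHR-type letters (TTTGAA or TTCGAA), the CCAAT box (CCAAT) and E2F-type letters (TTTCCCGC, TTTGGCGC, TTTCGCGC or TTTGCCGC), on either strand, and no marked stretches overlap. Cdk1, the kinase that drives mitosis, lies at chr10:69352913-69353162 (minus strand). Top2a, which untangles sister DNA before it is pulled apart, lies at chr11:99024190-99024439 (minus strand). Hmgb2, a chromatin protein of dividing cells, lies at chr8:57511593-57511842 (plus strand), and Plk1, a mitotic kinase, at chr7:122159185-122159434 (plus strand). Rrm2, the small subunit of ribonucleotide reductase, lies at chr12:24708004-24708253 (plus strand).
Cdk1: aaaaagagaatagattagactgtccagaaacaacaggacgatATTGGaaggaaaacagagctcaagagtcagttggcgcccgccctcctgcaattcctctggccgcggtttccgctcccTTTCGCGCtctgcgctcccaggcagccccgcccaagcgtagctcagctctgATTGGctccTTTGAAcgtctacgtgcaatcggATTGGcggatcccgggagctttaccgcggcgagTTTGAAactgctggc
Top2a: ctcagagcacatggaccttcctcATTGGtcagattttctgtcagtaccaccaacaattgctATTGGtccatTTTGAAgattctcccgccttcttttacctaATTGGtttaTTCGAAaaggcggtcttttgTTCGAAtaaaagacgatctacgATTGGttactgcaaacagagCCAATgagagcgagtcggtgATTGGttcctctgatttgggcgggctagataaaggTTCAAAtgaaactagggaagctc
Hmgb2: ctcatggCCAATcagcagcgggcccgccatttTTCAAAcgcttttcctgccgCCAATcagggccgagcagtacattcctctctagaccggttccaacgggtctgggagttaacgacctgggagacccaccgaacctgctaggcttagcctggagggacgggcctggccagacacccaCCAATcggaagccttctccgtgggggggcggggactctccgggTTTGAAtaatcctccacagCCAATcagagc
Plk1: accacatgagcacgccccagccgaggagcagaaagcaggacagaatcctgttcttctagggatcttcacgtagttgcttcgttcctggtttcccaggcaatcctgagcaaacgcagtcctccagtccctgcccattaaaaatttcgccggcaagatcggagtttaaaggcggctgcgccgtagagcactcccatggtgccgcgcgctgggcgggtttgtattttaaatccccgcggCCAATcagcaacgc
Rrm2: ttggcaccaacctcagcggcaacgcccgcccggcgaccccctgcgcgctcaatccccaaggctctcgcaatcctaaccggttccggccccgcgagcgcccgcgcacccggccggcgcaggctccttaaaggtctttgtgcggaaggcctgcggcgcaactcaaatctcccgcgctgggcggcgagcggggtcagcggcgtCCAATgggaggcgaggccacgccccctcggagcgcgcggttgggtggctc

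In these windows Cdk1 held 2 CHR-type stretches, 3 CCAAT boxes and 1 E2F-type stretch, and Top2a held 4 CHR-type stretches and 6 CCAAT boxes. Hmgb2 held 2 and 4, whereas Plk1 and Rrm2 each held 1 CCAAT box and no CHR-type letters. The window of Cdkn1a, the gene of the p21 inhibitor at chr17:29090976-29100727 (GENCODE, GRCm38), held none of these letters. A window was found for 29 of the 36 genes, and Ccnd1 (chr7:144929931-144939925) and Ccnd2 (chr6:127125162-127152193) are named only. CHR-type letters were in 34.5% of the 29 windows and in 17.4% of the 27025 windows of all genes, the CCAAT box in 75.9% against 34.5%, and E2F-type letters in 13.8% against 1.91%. These are matches of letters and were not measured as binding. Other letters, and bases after the RefSeq start, were not searched.

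Total counts were 9794683 to 18057936 per eWAT library and 8933307 to 17447524 per liver library. Levels are given as CPM, counts scaled to an equal library size (CPM by edgeR, with TMM factors). Adipocyte markers summed to 27270 to 35753 CPM in eWAT and hepatocyte markers to 64893 to 244338 CPM in the 15 liver libraries used, so both tissues matched their labels. A library of liver, Veh HPD replicate 4, stood far apart from the others, was left out of the fits and is described at the end. In eWAT, Cort HPD replicate 4 held 3750 CPM of 7 testis and epididymis markers (at most 11.0 in the other 15 libraries), with Tnp1 at 0 in all of them. Veh NPD replicate 3 held the most of the mitotic genes in eWAT and also the most endothelial (653 CPM) and B cell markers (17.9 CPM).

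A gene with under 10 counts in most libraries of a tissue is given as not measured. In eWAT 32 of the 36 genes were measured and Ccna2, Bub1, Aurkb and Cenpf were not. In liver 24 were measured, and the 12 that were not (Mcm5, Ccna2, Ccnb1, Ccnb2, Bub1, Bub1b, Aurka, Aurkb, Plk1, Cdc20, Mki67 and Cenpf) were nearly all genes of S, G2 and M phase. A gene was called at a Benjamini-Hochberg adjusted p under 0.05 over all genes of the tissue by edgeR's quasi-likelihood test. A gene that is low in some groups could be measured only through the groups where it is higher, so counts over the measured genes are a description.

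In eWAT on the NPD, cort lowered genes of mitosis and raised a D cyclin and p21. Cdk1 fell 8.24-fold, Top2a 4.45-fold and Hmgb2 2.34-fold, whereas Cdkn1a rose 2.07-fold and Ccnd2 1.48-fold. Plk1 fell 9.11-fold, a size that is a description at 0 to 12 counts per Cort NPD library. Together these were 6 of the 32 measured genes, against 7.98% of the 15187 genes tested (4.05% higher and 3.93% lower). The median log2 fold change of the 32 was -0.49, beside -0.02 for all genes tested. DESeq2 called 8 of the 32 and limma voom 6.

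Cdk1 was at 2.66, 7.37, 13 and 3.72 CPM in Veh NPD, at 3.3, 5.12, 3.61 and 1.75 CPM in Veh HPD, at 0.679, 0.291, 1.03 and 1.25 CPM in Cort NPD, and at 1.69, 0.842, 2.86 and 2 CPM in Cort HPD. On the NPD the groups did not overlap, and Cdk1 fell by 3.04 ± 0.59 (SE) on the log2 scale (adjusted p = 0.0011). Top2a was at 15.3, 13.8, 33.3 and 13.6 CPM in Veh NPD, at 11.7, 9.61, 11.7 and 2.72 CPM in Veh HPD, at 5.77, 2.04, 2.68 and 6.59 CPM in Cort NPD, and at 2.42, 5.05, 1.73 and 3.28 CPM in Cort HPD. All Cort NPD libraries lay below all Veh NPD libraries, and Top2a fell by 2.15 ± 0.47 (adjusted p = 0.0058). Both promoters carried CHR-type letters, as printed above, whereas that of Plk1, which also fell, carried neither TTTGAA nor TTCGAA, the only CHR-type letters searched. A link of these letters to the falls was not tested.

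Hmgb2 was at 9.51, 7.52, 12.2 and 9.23 CPM in Veh NPD, at 7.43, 8.15, 9.54 and 4.28 CPM in Veh HPD, at 2.44, 3.27, 4.65 and 6.14 CPM in Cort NPD, and at 8.63, 3.26, 6.12 and 6.11 CPM in Cort HPD. The NPD groups did not overlap, and it fell by 1.23 ± 0.34 on the log2 scale (adjusted p = 0.023). Plk1 had few counts, at 48, 3, 75 and 41 in Veh NPD, 33, 34, 24 and 18 in Veh HPD, 12, 0, 0 and 4 in Cort NPD, and 13, 8, 17 and 12 in Cort HPD. Here the NPD groups overlapped, because Veh NPD replicate 2 held 3 counts. It fell by 3.19 ± 1.01 (adjusted p = 0.049), a call that 12 of the 16 fits without 1 library did not keep. With so few counts in Cort NPD, the size of this fall is a description.

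The genes that rose had far more counts. Ccnd2, a D cyclin that starts G1, was at 1050, 899, 1022 and 1243 CPM in Veh NPD, at 946, 799, 1058 and 1544 CPM in Veh HPD, at 1636, 1333, 1599 and 1649 CPM in Cort NPD, and at 1370, 1341, 1292 and 940 CPM in Cort HPD. It rose by 0.56 ± 0.16 on the NPD (adjusted p = 0.03). Cdkn1a, which blocks cyclin-dependent kinases, was at 112, 114, 106 and 193 CPM in Veh NPD, at 98.6, 121, 66.7 and 40.3 CPM in Veh HPD, at 257, 264, 225 and 345 CPM in Cort NPD, and at 119, 112, 127 and 132 CPM in Cort HPD. Every Cort NPD library lay above every Veh NPD library for both genes, and Cdkn1a rose by 1.05 ± 0.28 (adjusted p = 0.032). Both calls were lost when libraries were scaled by their totals without TMM factors (0.47, adjusted p = 0.052, and 0.96, adjusted p = 0.077). Each was also lost in 6 of the 16 fits without 1 library, at adjusted p-values up to 0.099 and 0.11. Cdkn1a was not called in 3 of the 7 other alternatives, the totals among them.

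**Figure D1:**
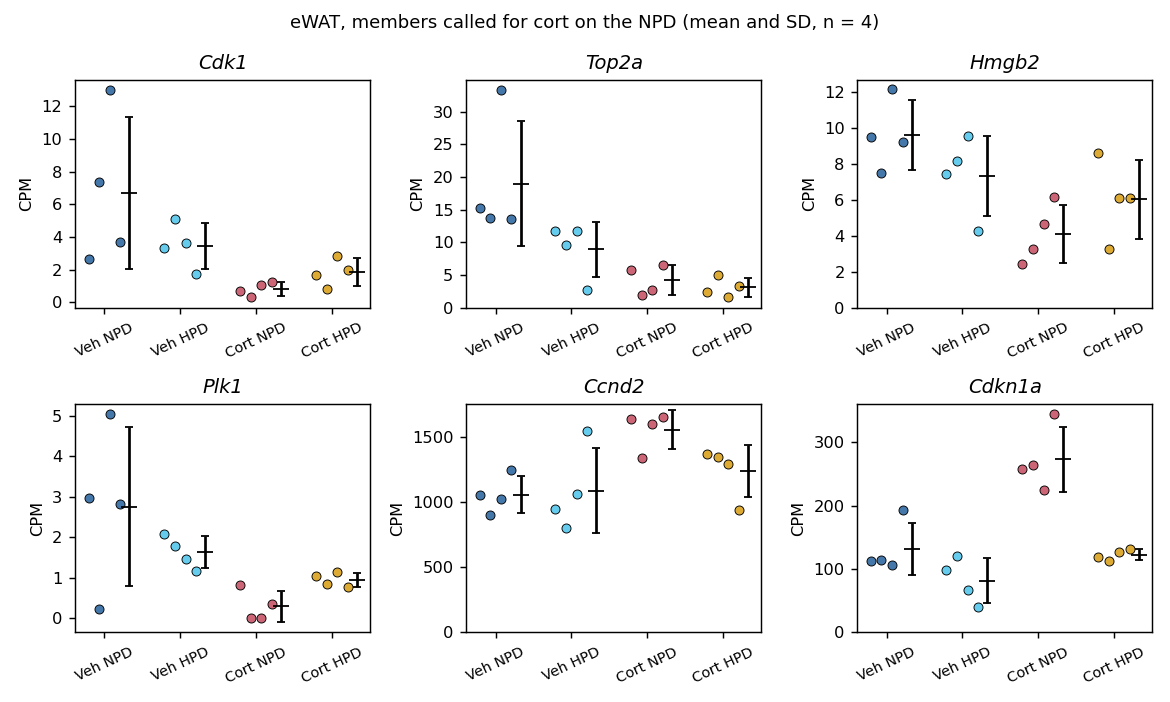
CPM (vertical axes) of the 6 genes called for cort on the NPD in eWAT, with a point for each library of the 4 groups (horizontal axes) and the mean and SD (n = 4) as a cross-bar and line. For Cdk1, Top2a and Hmgb2 the 4 Cort NPD points lie below the 4 Veh NPD points, for Ccnd2 and Cdkn1a above, and for Plk1 the groups overlap.

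By role, the 3 measured genes of S, G2 and M cyclins and kinase, the 6 of mitotic kinases, checkpoint and ubiquitin ligase, and the 4 of chromatin and tubulin factors all had a log2 fold change below 0 on the NPD, with 1, 1 and 2 of them called. Their medians were -1.44, -1.45 and -1.69. Among those that missed the threshold, Mki67, the marker of cycling cells, was at 5.49 ± 2.37 CPM (SD, n = 4) in Veh NPD and 0.905 ± 0.764 CPM in Cort NPD (log2 fold change -2.60 ± 0.89 (SE), adjusted p = 0.076), and Birc5, a survival and spindle protein, was at 4.3 ± 2.57 and 1.1 ± 0.358 CPM (-1.96 ± 0.68, adjusted p = 0.076). DESeq2 called both, at adjusted p-values of 0.019 and 0.022. Cdc20, Stmn1, Ccnb2, Bub1b, Ccnb1, Aurka and Ube2c lay between -1.77 and -0.34 with adjusted p-values of 0.31 to 0.77. Of the genes not measured, Cenpf, a kinetochore protein, had 39, 9, 191 and 76 counts in Veh NPD and 5, 4, 4 and 1 in Cort NPD and, in view of its low counts, is given as a description and not counted among the 6.

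The 7 licensing and fork genes, the helicase subunits Mcm2 to Mcm7 and the clamp Pcna, lay between -0.45 and 0.73 with none called, and their summed level was 83.4 to 110 CPM in Veh NPD and 91.9 to 105 CPM in Cort NPD. Of the 4 genes of nucleotide supply, Rrm1 was at 0.22, and Tk1, Tyms and Rrm2 at -0.82, -0.83 and -1.07, with no call. Ccnd1, the other D cyclin, was at 45 ± 11.7 CPM in Veh NPD and 21.7 ± 7.01 CPM in Cort NPD, groups that did not overlap (-1.05 ± 0.53, adjusted p = 0.3). In a fit of only the NPD groups the change was -1.06 with an adjusted p of 0.008, and without Cort HPD replicate 4, where Ccnd1 was highest, it was -1.05 with an adjusted p of 0.016. The E cyclins Ccne1 and Ccne2, which act at the start of S phase, were at 0.42 and 0.49 without a call. Cdk4, Cdkn1b and Cdkn2c, the kinase of G1 and 2 of its inhibitors, lay between -0.28 and 0.01.

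The count of called genes depended most on Veh NPD replicate 3. Without it 2 of the genes were still called, Cdk1 (-2.50) and Top2a (-1.74). Without Veh NPD replicate 1 or Cort NPD replicate 1, 2 or 4 it was 3 genes, and Cdk1 and Top2a were called in every fit that left out 1 library. Without Cort HPD replicate 4 there were 8.

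On the HPD, 0 of the 32 measured genes were called for cort in eWAT by edgeR, against 6.09% of all genes tested (3.46% higher and 2.63% lower). At an unadjusted p under 0.05 there were 4, beside 2872 of the 15187 genes tested. DESeq2 called 2 (Top2a and Rrm2) and limma voom 0. Top2a came nearest, at -1.54 ± 0.47 (adjusted p = 0.06), and Mki67 was at -2.23 ± 0.91 (adjusted p = 0.17). Rrm2 held 24, 33, 14 and 31 counts in Veh HPD and 0, 2, 4 and 0 in Cort HPD, groups that did not overlap (-3.62 ± 1.31, adjusted p = 0.11). Cdk1 was at -0.88 ± 0.54, Hmgb2 at -0.28 ± 0.34, Ccnd2 at 0.19 ± 0.16 and Cdkn1a at 0.58 ± 0.28. By role, the 4 genes of nucleotide supply, the 3 of S, G2 and M phase and the 4 chromatin and tubulin factors were all below 0, with medians from -1.0 to -0.88, whereas the 6 mitotic kinase and checkpoint genes were 3 above and 3 below (median -0.08). Among these the kinase Aurka was at 1.24 ± 0.74 with no overlap of the groups (adjusted p = 0.39). The call for Top2a appeared without Veh HPD replicate 4, the lowest Veh library for that gene (-1.84, adjusted p = 0.0049), together with Cdkn2c (0.50, adjusted p = 0.041), and Top2a was also called without Veh NPD replicate 3, Cort NPD replicate 2 or Cort HPD replicate 2.

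Ccnd1 on the HPD turned on Cort HPD replicate 4. Its counts in Cort HPD were 120, 208, 193 and 1104, and the highest was the library with the testis and epididymis markers. In CPM it was at 37.2, 27.9, 35.5 and 23 in Veh HPD and at 9.68, 21.9, 12.8 and 71.1 in Cort HPD. The log2 fold change was -0.09 ± 0.52 with that library (adjusted p = 0.96) and -1.07 without it (adjusted p = 0.043), which made 1 call among the 32.

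Whether cort acted differently by diet was tested as an interaction, in which 0 of the 32 genes were called in eWAT, against 0.0132% of all genes (0.00658% in each direction). At an unadjusted p under 0.05 there was 1, Cdk1 (2.16 ± 0.78, adjusted p = 0.86), beside 784 of the 15187 genes tested. DESeq2 and limma voom called 0. A call on the NPD and none on the HPD is therefore not shown to be a difference between diets. In simulated data the interaction test found 40% of genes changed by 2 on the log2 scale in eWAT. The simulation gave every gene the same spread and changed no gene at the lowest levels. Its share is therefore not that of the low mitotic genes.

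**Figure D2:**
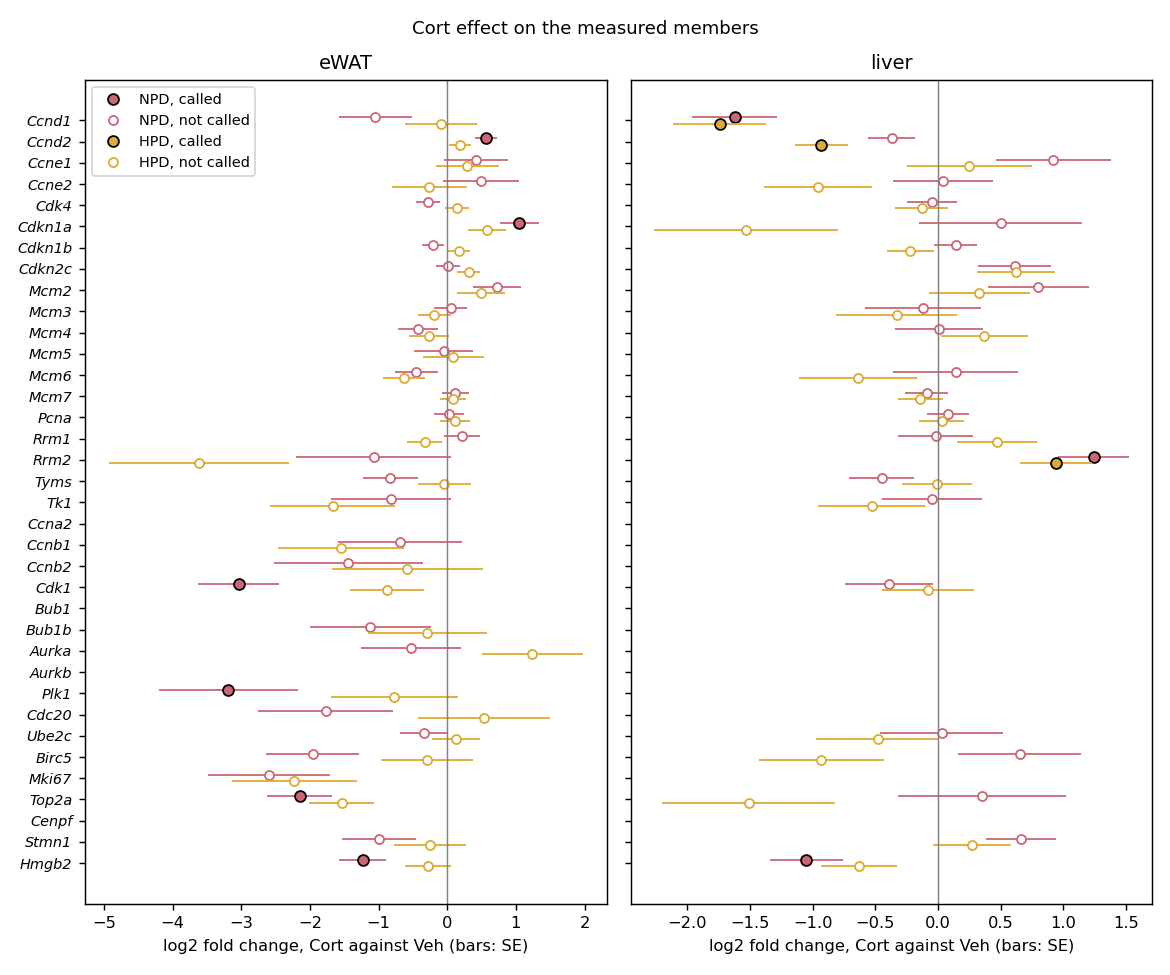
Log2 fold change of Cort against Veh (horizontal axes, bars SE) for each measured gene (vertical axis) in eWAT and liver, on the NPD and the HPD, with filled points for called genes. In eWAT the genes from Ccnb1 down to Hmgb2 lie left of 0 on the NPD, and in liver Ccnd1 lies left of 0 and Rrm2 right of 0 on both diets.

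Summed over the 17 genes of S, G2 and M phase, mitosis and chromatin of dividing cells, eWAT held 51.8, 61.5, 140 and 67.7 CPM in Veh NPD, 49.4, 47.9, 54.8 and 24.5 CPM in Veh HPD, 30, 20.8, 23.7 and 27.8 CPM in Cort NPD, and 32.2, 24.9, 27.9 and 30.3 CPM in Cort HPD. The Cort and Veh libraries did not overlap on the NPD, whereas Veh HPD replicate 4 lay among the Cort libraries. Without Ube2c, Stmn1 and Hmgb2, the 14 others summed to 34.7 to 112 CPM in Veh NPD and 9.86 to 19.8 CPM in Cort NPD. Stmn1 and Hmgb2 also have roles outside division. Ube2c is a mitotic gene and had the smallest fall of those measured on the NPD (-0.34), so leaving it out widens the gap.

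Some markers of cell types moved with cort in the same libraries. Those counted as higher or lower are called ones, beside 7.98% of all genes called on the NPD and 6.09% on the HPD. The adipocyte markers summed to 28200 to 35106 CPM in Veh NPD and 29320 to 35753 CPM in Cort NPD (2 of 6 higher and 1 lower). On the HPD they summed to 27301 to 34956 and 27270 to 32870 CPM (1 higher and 1 lower). The 5 markers of adipocyte progenitors summed to 308 to 361 CPM in Veh NPD and 186 to 201 CPM in Cort NPD, and to 310 to 385 and 232 to 244 CPM on the HPD, with 3 and 4 of 5 lower. The 7 macrophage markers summed to 837 to 933 and 693 to 912 CPM on the NPD (3 of 7 lower), and to 759 to 996 and 799 to 1091 CPM on the HPD (1 higher and 2 lower). Erythroid markers summed to 5252 to 9274 CPM in Veh HPD and 12685 to 25859 CPM in Cort HPD (5 of 6 higher). Of 4 endothelial markers 1 was lower on the NPD (326 to 653 and 328 to 370 CPM), T and NK cell markers summed to 2.41 to 13.2 and 1.74 to 5.97 CPM with 0 of 5 tested called, and skeletal muscle markers to 62.3 to 199 and 10.3 to 23.8 CPM. Their part in the result was not tested.

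**Figure D3:**
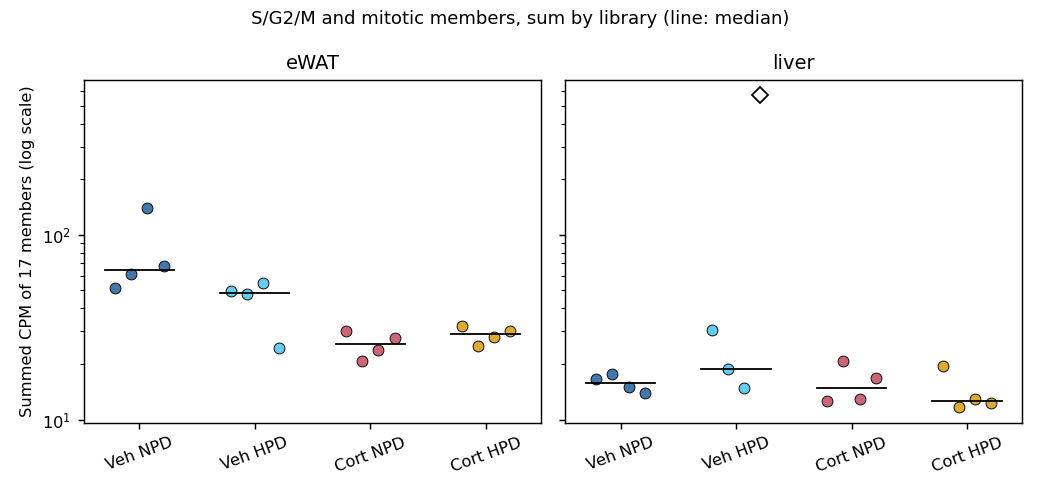
Summed CPM of the 17 genes of S, G2 and M phase and mitosis (vertical axis, log scale) by library in the groups of eWAT and liver, with the median of each group as a line. The Cort NPD libraries of eWAT (20.8 to 30) lie below the Veh NPD libraries (51.8 to 140), and the open diamond is the liver library left out, at 569.

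Diet by itself had no called member in eWAT. Between the Veh groups 0 of 32 were called, against 0.0593% of all genes (0.0132% higher and 0.0461% lower), and 0 by DESeq2 and limma voom. Birc5, Top2a and Cdkn1a, all with lower values on the HPD, were the 3 at an unadjusted p under 0.05. Of the 15187 genes tested 1219 were under it. By role, the 6 mitotic kinase and checkpoint genes and the 4 chromatin and tubulin factors were all below 0 (medians -1.11 and -0.74). Of the 3 genes of S, G2 and M phase 2 were below 0 (median -0.95), and the other roles had medians from -0.04 to 0.05. The Veh NPD libraries are shared with the comparison of cort on the NPD. Between the Cort groups 0 of 32 were called, against 0.487% (0.204% higher and 0.283% lower). At an unadjusted p under 0.05 there were 4, beside 1490 of the 15187 genes tested. DESeq2 and limma voom each called 1. That gene was Cdkn1a, at 225 to 345 CPM in Cort NPD and 112 to 132 CPM in Cort HPD. The groups did not overlap, and the log2 fold change was -1.15 ± 0.28, with an adjusted p of 0.12 by edgeR, 0.011 by DESeq2 and 0.032 by limma voom. This comparison shares the Cort NPD libraries with the one on the NPD above.

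In liver, the D cyclin Ccnd1 fell and Rrm2 rose with cort on both diets, and 11 of the 17 genes of S, G2 and M phase, mitosis and chromatin of dividing cells were not measured. On the NPD Ccnd1 fell 3.07-fold and Hmgb2 2.06-fold, and Rrm2 rose 2.36-fold. On the HPD Ccnd1 fell 3.35-fold and Ccnd2 1.9-fold, and Rrm2 rose 1.92-fold. These were 3 of the 24 measured genes on each diet, against 12.6% (6.84% higher and 5.79% lower) and 9.89% (4.75% higher and 5.14% lower) of the 12391 genes tested, shares that are close to those of all genes. The median log2 fold change of the 24 was 0.04 and -0.18, beside -0.01 and -0.00 for all genes tested.

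Ccnd1, which carries hepatocytes through G1, was at 17.1, 23.3, 21.6 and 15 CPM in Veh NPD, at 21.8, 9.85 and 11.7 CPM in Veh HPD, at 2.15, 8.63, 4.92 and 9.24 CPM in Cort NPD, and at 4.75, 5, 4.28 and 3.27 CPM in Cort HPD. No Cort library reached a Veh library of its diet. It fell by 1.62 ± 0.34 on the NPD (adjusted p = 0.0051) and by 1.74 ± 0.37 on the HPD (adjusted p = 0.0066), and both calls were kept in every fit that left out 1 of the 15 libraries. Ccnd2 was at 21.4, 22, 18.7 and 16.7 CPM in Veh NPD, at 23, 16.7 and 19.9 CPM in Veh HPD, at 10.6, 13.3, 16.2 and 20.5 CPM in Cort NPD, and at 8.73, 12.6, 11.3 and 9.21 CPM in Cort HPD. The groups overlapped on the NPD (-0.37 ± 0.19, adjusted p = 0.22) and not on the HPD, where it fell by 0.93 ± 0.21 (adjusted p = 0.0056).

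Rrm2 was at 3.4, 2.97, 2.42 and 4.65 CPM in Veh NPD, at 4.3, 3.89 and 3.58 CPM in Veh HPD, at 6.7, 7.25, 8.71 and 9.18 CPM in Cort NPD, and at 5.09, 12.4, 4.97 and 7.57 CPM in Cort HPD. The Cort libraries lay above the Veh libraries of their diet. It rose by 1.24 ± 0.28 on the NPD (adjusted p = 0.0043) and by 0.94 ± 0.29 on the HPD (adjusted p = 0.043). On the HPD 10 of the 15 fits without 1 library did not call it, and without Cort HPD replicate 2, the highest, the value was 0.58 (adjusted p = 0.19). The partner subunit Rrm1 was at -0.02 ± 0.30 and 0.47 ± 0.32.

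Hmgb2 was at 3.32, 4.46, 4.59 and 4.06 CPM in Veh NPD, at 4.13, 3.8 and 3.45 CPM in Veh HPD, at 1.54, 2.5, 1.89 and 2.01 CPM in Cort NPD, and at 4.24, 1.69, 1.99 and 2 CPM in Cort HPD. On the NPD the groups did not overlap and it fell by 1.05 ± 0.29 (adjusted p = 0.02), a call lost without Cort NPD replicate 1 (-0.94, adjusted p = 0.056). On the HPD, Cort HPD replicate 1 lay above all Veh libraries (-0.63 ± 0.30, adjusted p = 0.21), and without it the gene was called (adjusted p = 0.028).

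**Figure D4:**
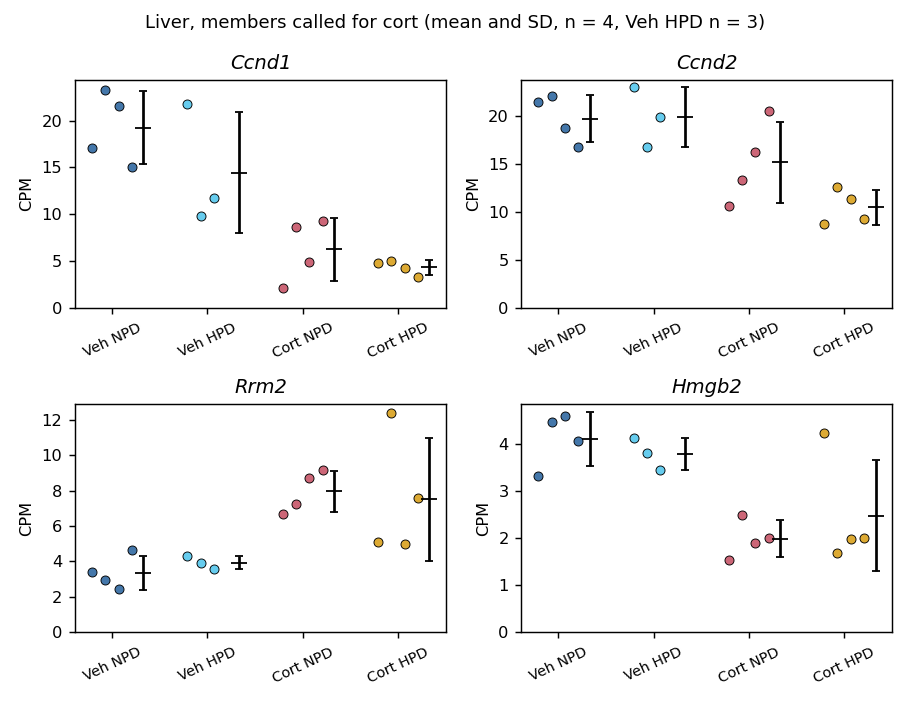
CPM (vertical axes) of the 4 genes called for cort in liver, with a point for each of the 15 libraries used (horizontal axes: the groups) and the mean and SD (n = 4, Veh HPD n = 3) as a cross-bar and line. Ccnd1 is lower and Rrm2 higher in all Cort libraries than in the Veh libraries of the same diet, and 1 Cort HPD library stands high for Hmgb2 (4.24 CPM).

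The other 20 measured genes of liver gave no call for cort. Licensing and fork genes lay between -0.12 and 0.80 on the NPD and between -0.64 and 0.37 on the HPD, and Cdk1 at -0.39 ± 0.35 and -0.08 ± 0.37. The 17 genes of S, G2 and M phase and mitosis summed to 13.9 to 17.6 CPM in Veh NPD, 14.8 to 30.5 CPM in Veh HPD, 12.6 to 20.7 CPM in Cort NPD and 11.7 to 19.6 CPM in Cort HPD, ranges that overlap. Markers counted as higher or lower are again called ones, beside 12.6% of all genes called on the NPD and 9.89% on the HPD. The Kupffer cell markers summed to 150 to 221 and 59.4 to 78.5 CPM on the NPD (4 of 5 lower) and to 165 to 174 and 89.3 to 158 CPM on the HPD (3 of 5 lower). The hepatocyte markers summed to 77400 to 108303 and 95925 to 116745 CPM on the NPD (1 of 6 higher and 2 lower). On the HPD they summed to 64893 to 77711 and 134288 to 244338 CPM (3 of 6 higher). The macrophage markers summed to 138 to 193 and 54.9 to 134 CPM on the NPD (2 of 6 tested lower) and to 117 to 153 and 64.3 to 138 CPM on the HPD (1 of 6 lower). Erythroid markers summed to 1913 to 3469 and 5272 to 7624 CPM on the HPD (2 of 6 higher and 1 lower). T and NK cell markers summed to 3.82 to 5.19 and 0.345 to 2.62 CPM on the NPD (2 of 4 tested lower). Endothelial markers summed to 57.8 to 72.1 and 29.7 to 42 CPM on the HPD (2 of 4 lower). Their part in the changes of Ccnd1, Ccnd2, Rrm2 and Hmgb2 was not tested.

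Diet in liver gave no call among the measured members by edgeR. Between the Veh groups 0 of 24 were called, against 0.169% of all genes (0.105% higher and 0.0646% lower), and 0 by DESeq2 and limma voom. At an unadjusted p under 0.05 there was 1 (Mcm6, 1.55 ± 0.49), beside 1165 of the 12391 genes tested. Between the Cort groups 0 of 24 were called, against 5.88% (3.08% higher and 2.8% lower). At an unadjusted p under 0.05 there were 5, beside 2644 of the 12391 genes tested. DESeq2 and limma voom each called 2. Cdkn1a was at 52, 55.5, 32.5 and 24.6 CPM in Cort NPD and at 5.09, 10.2, 7.34 and 7.94 CPM in Cort HPD, groups that did not overlap (-2.42 ± 0.70, adjusted p = 0.067 by edgeR and 0.0064 by DESeq2). Its Veh libraries were spread over 14.4 to 44.9 CPM on the NPD and 2.43 to 49.3 CPM on the HPD. Mcm4, a helicase subunit, was at 1.46, 1.47, 1.44 and 2.13 CPM in Cort NPD and at 1.95, 3.72, 3.21 and 4.53 CPM in Cort HPD (1.04 ± 0.34, adjusted p = 0.068, with a call by DESeq2 and limma voom). In the interaction 0 of 24 were called, against 0.113% (0.0565% in each direction), and 0 by the other tools. At an unadjusted p under 0.05 there was 1 (Birc5, -1.57 ± 0.70), beside 1496 of the 12391 genes tested.

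Whether cort acted differently in the tissues was tested in a fit of both, as the effect in liver minus that in eWAT. On the NPD 1 of the 24 genes measured in both was called, against 3.85% of 16482 genes tested (2.51% higher and 1.35% lower). It was Cdk1, with a difference of 2.69 ± 0.68 (adjusted p = 0.016): it fell in eWAT and was at -0.39 in liver. Without eWAT Veh NPD replicate 3 the difference was 2.10 and not called (adjusted p = 0.078). On the HPD 2 were called, against 3.12% (1.11% higher and 2.01% lower). Rrm2 differed by 4.51 ± 1.0 (adjusted p = 0.0076): it rose in liver and was at -3.62 in eWAT, where it had 0 to 4 counts per Cort HPD library. In eWAT Rrm2 had under 10 counts in 7 of the 16 libraries, so this difference is a description. Ccnd2 differed by -1.15 ± 0.28 (adjusted p = 0.015), lower with cort in liver and at 0.19 in eWAT. Ccnd1 gave no call (-0.52 ± 0.66 and -1.69 ± 0.69).

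Other genes of the cell cycle, from a list of 99, gave few calls. In eWAT 5 of the 90 tested were called on the NPD (2 higher and 3 lower) and 5 on the HPD (3 higher and 2 lower), beside 7.98% and 6.09% of all genes tested. Prc1, which bundles microtubules between the spindle poles, was at 3.05 to 14.4 CPM in Veh NPD and 0 to 0.868 CPM in Cort NPD. On the NPD Prc1 fell by 3.70 ± 0.83 (adjusted p = 0.0049) and the centromere histone Cenpa by 2.41 ± 0.66 (adjusted p = 0.02). The kinetochore gene Nuf2 was at 0 to 1.55 CPM in Veh NPD and 0 in all Cort NPD libraries. The retinoblastoma gene Rb1 rose by 0.47 ± 0.13 and Cdkn1c, the p57 inhibitor, by 0.55 ± 0.16 on the NPD, and Cdkn1c by 0.69 ± 0.16 on the HPD (adjusted p = 0.0075). On the HPD the replication factor Pclaf (0.195 to 3.93 CPM in Veh HPD) and the spindle gene Hmmr (0 to 1.59 CPM) were at 0 in all Cort HPD libraries. Nuf2, Pclaf and Hmmr are counted among the calls but passed the filter on low counts only through libraries where they are higher, so their values are a description. Prc1 was also near 0 in Cort NPD, so the size of its fall is a description. Ccnd3 rose by 0.42 ± 0.13 and E2f2 by 1.46 ± 0.44.

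In liver 6 of the 68 tested were called on the NPD (3 higher and 3 lower) and 3 on the HPD (1 higher and 2 lower), beside 12.6% and 9.89% of all genes tested. E2f8, a repressor of E2F target genes that is known in polyploid hepatocytes, was at 4.82 ± 1.68 CPM in Veh NPD and 0.965 ± 0.531 CPM in Cort NPD (SD, n = 4), and at 5.66 ± 2.3 (n = 3) and 0.953 ± 0.252 CPM on the HPD. It fell by 2.32 ± 0.38 (adjusted p = 2.5e-04) and by 2.55 ± 0.39 (adjusted p = 2.1e-04). Mcm10, a replication initiation factor, was at 41.6 to 80.3 CPM in Veh NPD and 11 to 22.7 CPM in Cort NPD, and fell by 1.91 ± 0.37 and, on the HPD, by 1.80 ± 0.39 (adjusted p = 0.0039 and 0.01). On the NPD Cdk6 rose by 0.58 ± 0.16, Rb1 by 0.91 ± 0.27 and Cdkn1c by 1.04 ± 0.33, and the clamp loader subunit Rfc2 fell by 0.52 ± 0.17. On the HPD Rpa2, a single-strand DNA binding protein, rose by 0.72 ± 0.21. For diet under Cort, 4 of the 68 were called in liver, beside 5.88% of all genes (3.08% higher). Spc25, E2f2, Pola2 and Rfc3 were all higher on the HPD. In eWAT 1 of 90 was called, beside 0.487%: Rb1, lower on the HPD (-0.60 ± 0.13, adjusted p = 0.037).

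Of 18 target genes of p53, which also drives Cdkn1a, 1 of 18 tested was called in eWAT on the NPD and 2 on the HPD, all higher, beside 7.98% and 6.09% of all genes tested (4.05% and 3.46% higher). Phlda3, an inhibitor of Akt signaling, was at 71.9 to 93.3 CPM in Veh NPD and 150 to 206 CPM in Cort NPD, and rose by 1.20 ± 0.15 (adjusted p = 6.9e-06) and, on the HPD, by 1.51 ± 0.16 (adjusted p = 2.2e-07). Perp was called on the HPD, where it was at 0.952, 1.88, 1.1 and 0.454 CPM in Veh HPD and 0.565, 5.05, 1.93 and 19.2 CPM in Cort HPD. The groups overlapped, and the highest value was in Cort HPD replicate 4, the library with the testis and epididymis markers, whose part in the call was not tested. In liver, where 12.6% and 9.89% of all genes were called, 2 of 17 were higher on the NPD (Ei24, 0.90 ± 0.17, and Mdm2, 0.65 ± 0.21) and 2 were lower on the HPD (Gadd45a, -1.55 ± 0.41, and Btg2, -1.12 ± 0.30). The list medians for cort were 0.22 and 0.12 in eWAT and 0.05 and 0.16 in liver. For diet under Cort, 2 of 17 were called in liver, beside 5.88% of all genes. Bbc3 was higher (0.72 ± 0.21) and Perp lower (-0.55 ± 0.16) on the HPD, both at an adjusted p of 0.044. In eWAT 0 of 18 were called, beside 0.487%.

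The liver library left out, Veh HPD replicate 4, held the cell cycle genes at levels far above those of any other liver library. Of the 36 genes, 32 were above all 15 others. Of the 24 measured in liver 20 were (83.3%), beside 18.2% of the 12391 genes tested there. The exceptions were Ccnd2, Ccne2, Cdk4 and Tk1. Cdk1 had 2135 counts (109 CPM), against at most 76 counts (at most 5.68 CPM) elsewhere. Ccnb1, the cyclin of mitotic entry, was at 38.2 CPM against at most 1.04, Cdc20, an activator of the anaphase ubiquitin ligase, at 55.3 against at most 1.56, and Plk1 at 41.4 against at most 1.21. The 12 genes not measured in the other libraries were all among the 32.

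The excess differed between roles. Each gene of S, G2 and M phase and of mitotic kinases was 12.5 to 36.8 times the highest of the 15 others, and the licensing and fork genes 1.6 to 5.03 times. Ccnd1 was at 80 CPM against at most 23.3, and Cdkn1a at 82 against at most 55.5. The 17 genes of S, G2 and M phase and mitosis summed to 569 CPM, and the next library, Veh HPD replicate 1, to 30.5 CPM. That library was also the highest of the 15 for Mcm6 (6.7 CPM), Top2a (2.23 CPM), Birc5 (3.46 CPM) and Mki67 (1.17 CPM). In the library left out 77 of 96 other cell cycle genes and 13 of 18 p53 target genes were above all 15, 5 of 6 hepatocyte markers were below all 15 (sum 38304 CPM), and 5 of 7 macrophage and 3 of 5 Kupffer cell markers were above. This is 1 library, with no replicate and no test.

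**Figure D5:**
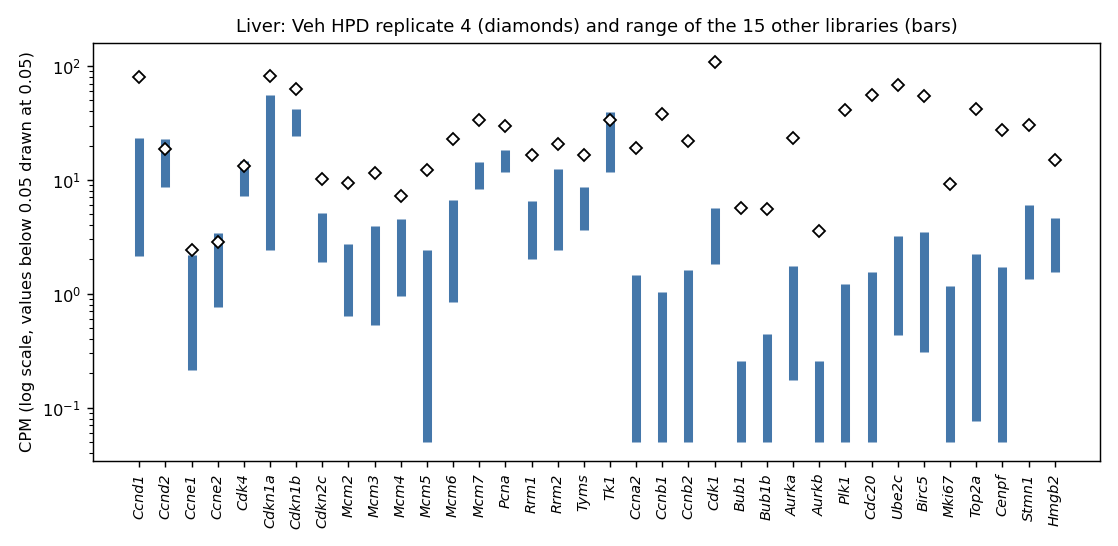
CPM (vertical axis, log scale, values below 0.05 drawn at 0.05) of the 36 genes (horizontal axis) in liver Veh HPD replicate 4 (diamonds) and the range over the 15 other liver libraries (bars). The diamonds of Ccna2 to Cenpf stand well above the bars, with Cdk1 at 109 CPM against at most 5.68.

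Adding this library to the fit removed or made calls in liver. With all 16 libraries, 0 of the 24 genes were called on the NPD, where the values were almost the same (Ccnd1 -1.61, Rrm2 1.24, Hmgb2 -1.04) and the adjusted p-values were 0.12 to 0.15. On the HPD 4 were called, all lower: Ccnd1 (-2.80), Ccnd2 (-0.89), Top2a (-4.30) and Hmgb2 (-1.40). Rrm2 turned from 0.94 to -0.09. In the test of the tissue difference Cdk1 on the NPD was then at 2.67 (adjusted p = 0.32) and Rrm2 on the HPD at 3.53 (adjusted p = 0.077), without a call, whereas Ccnd2 kept its call (-1.07, adjusted p = 0.022) and Cdkn1a gained one (-2.82, adjusted p = 0.048).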

How the data were processed

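RNA of eWAT and liver was measured in 32 QuantSeq libraries, which read transcripts from the 3′ end. Deposited values are raw counts of reads by Ensembl gene, which the authors did not normalize; the submitters' processing notes name GRCm38 and mm10, R 4.0.3 and limma, and the aligner, the counter, strand use and reads shared with near-identical gene copies are not given in the sources used here. Symbols came from the GENCODE annotation of GRCm38 (47224 of 47643 gene IDs). The genes, lists and comparisons were chosen with earlier results of these data known.

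The 4 group means of a tissue were fitted together, separately for eWAT and liver, in R 4.3.3 with edgeR 4.0.16: filterByExpr (minimum count 10, total 15), TMM factors, robust quasi-likelihood tests and Benjamini-Hochberg adjustment over all genes (threshold 0.05). Both tissues were fitted together for the tissue difference. Liver Veh HPD replicate 4 was left out. SE is the log2 fold change divided by the square root of F. Genes called in any comparison are given by library and the others by range. Of the other cell cycle genes, up to 3 per direction and cort comparison are named, and of p53 targets all those called for cort within a tissue. Calls of both lists for diet under Cort are also given, and those for the tissue difference are not.

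Alternatives were RLE factors, totals without factors, DESeq2 1.42.0, limma 3.58.1 voom with quality weights, no filter, the replicate block, only the compared groups, all liver libraries and each library left out. In simulated counts with 200 genes changed by 2 on the log2 scale, edgeR recovered 92% in eWAT and 99.5% in liver for cort on the NPD, with 5.64% and 5.69% of calls false, DESeq2 92% and 99.5% with 15.6% and 13.5% false, and voom 87.5% and 100% with 6.91% and 6.54% false. Every simulated gene had the same spread, and genes at the lowest levels were not changed. These shares are therefore not those of the low mitotic genes. Depth was 8933307 to 18057936 counts, so genes below about 10 counts per library could not be followed.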

Additional observations from a re-analysis of the deposited data

Results flagged for a closer look

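Of 36 groups of 4 libraries tested, 4 held a library far from the other 3, and chance flags about 1 in 20. In eWAT these were Ccnd2 in Cort NPD replicate 2 (1333 CPM, the others 1599 to 1649), Cdkn1a in Veh NPD replicate 4 (193 CPM, the others 106 to 114) and Top2a in Veh NPD replicate 3 (33.3 CPM, the others 13.6 to 15.3). In liver it was Hmgb2 in Cort HPD replicate 1 (4.24 CPM, the others 1.69 to 2). The highest Top2a library is also the one with the most endothelial and B cell markers in eWAT, and their part was not tested.

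The cort effect in liver minus that in eWAT was 2.69 for Cdk1 on the NPD, -1.15 for Ccnd2 on the HPD and 4.51 for Rrm2 on the HPD, each called by the test of the difference. Rrm2 had 0 to 4 counts per Cort HPD library of eWAT, so its value is a description. In liver Veh HPD replicate 4, which was left out of the comparisons except where all 16 libraries were fitted, 32 of the 36 genes were above all 15 other liver libraries. Of the 24 measured in liver 20 were (83.3%), against 18.2% of all genes tested.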

How the results depend on the processing

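Leaving out 1 library at a time, the number of genes called ranged from 2 to 8 for cort on the NPD and from 0 to 2 on the HPD in eWAT, from 2 to 3 and from 2 to 4 in liver, and from 0 to 3 and from 1 to 3 for the tissue difference. For HPD against NPD under Cort it ranged from 0 to 1 in eWAT (without Veh HPD replicate 2 or 4) and from 0 to 1 in liver (without Veh HPD replicate 2 or 3, Cort NPD replicate 1 or Cort HPD replicate 1), and under Veh and for the interaction it was 0 in both tissues. With DESeq2, 2 genes were called for cort on the HPD in eWAT, 1 for diet under Cort in eWAT, 2 in liver, and 5 for the tissue difference on the NPD. With limma voom these last 3 were 1, 2 and 4, with RLE factors the tissue difference gave 2, with library totals diet under Cort in liver gave 2, and with only the compared groups it gave 1 in each tissue. With all 16 liver libraries, 0 genes were called for cort on the NPD in liver and 0 for the tissue difference on the NPD, and Rrm2 on the HPD reversed to -0.09.

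Replicate numbers did not pair the libraries: correlations of same-numbered libraries' deviations had a median of 1.0e-05 in eWAT (24 pairs, 1 over 0.1) and -0.00533 in liver (21 pairs, 3 over 0.1). With the replicate block, 4 genes were called in eWAT and 3 in liver on the NPD, 0 and 2 on the HPD, and 1 for diet under Cort in liver (Cdkn1a, adjusted p = 0.045). Cdk1 and Top2a on the NPD in eWAT and Ccnd1 and Ccnd2 on the HPD in liver kept their call in all alternatives run. The causes were not tested. Few counts limit the mitotic genes, 11 of 17 of which were not measured in liver.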
